A study of Homo sapiens with 18 samples.

Results

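The genes described here carry antigen presentation by major histocompatibility complex (MHC) class II and its partner signal to T cells, costimulation. They were 9 genes matched by symbol. HLA-DRA, HLA-DRB1, HLA-DPA1 and HLA-DPB1 encode chains of the class II molecules HLA-DR and HLA-DP, and the others were HLA-DMA, HLA-DMB, CD74, CIITA and CD86. The set was chosen with earlier results of these data known, so counts within it are descriptions and not independent support. Of these, 8 were listed in at least 1 of 2 human acute myeloid leukaemia lines. MOLM-13, a line of monocytic character, listed 8 among 17475 genes, all but HLA-DPA1. HL-60, a line of promyelocytic character, listed 3 among 17110 genes, namely CD74, HLA-DMA and CD86. All 3 and all 8 passed the filter on low values. A gene that the tables of a line do not list has no value there, and its level in that line is unknown.

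Stranded total RNA sequencing compared cells kept for 48 h (day 2) with the solvent dimethyl sulfoxide (DMSO), with decitabine (DAC) or with NTX-301. Each line thus gave 3 groups of 3 samples, 18 samples in all, and the labels name no genetic change in any of them. DAC is a deoxycytidine analogue whose incorporation into DNA ties up DNA methyltransferases. NTX-301 is a code name, known as that of another DNA methyltransferase inhibitor. HL-60 was given 30 nM and MOLM-13 was given 15 nM, in wording that may cover both drugs or DAC alone. The doses of the 2 drugs are therefore not known to match, and dose and line cannot be told apart. The 3 samples of a group were triplicate wells, which are not said to come from separate cultures, so the p-values measure only the spread between these samples, which may be technical.

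Class II molecules display peptides from endosomes to CD4+ T cells. An alpha chain and a beta chain assemble around CD74, the invariant chain, which fills the peptide groove and guides the complex to endosomes. Proteases there cut CD74 down to a short remnant, and HLA-DM, a dimer of HLA-DMA and HLA-DMB, exchanges that remnant for antigenic peptide. CIITA is the coactivator on which the transcription of these genes depends. It does not bind DNA itself but is held at their promoters by factors on the X box (the RFX complex and CREB1) and on the Y box (the NF-Y complex). CD86 is a surface ligand of CD28 and CTLA4 on T cells and lies outside this promoter family. In acute myeloid leukaemia, low class II expression is known as a route by which blasts escape T cells after transplantation.

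The promoter sequences show the X and Y box letters that several class II genes share. RefSeq promoter windows (build GRCh38.p14, 250 bases before to 50 after the start of a gene) were matched by symbol for 7 of the 9 genes, in 9 windows. HLA-DRA and CIITA had no window. The X box core was searched as ACNGATGA and the Y box core as GATTGG, on both strands, with letters chosen while the matches were in view, so a match is a description and not a binding site. The X box core stood in 795 of 35116 windows (2.264%) and the Y box core in 5314 (15.133%). An X box core followed by a Y box core on the gene's strand, with starts no more than 50 bases apart, stood in 14 windows (0.04%), among them those of HLA-DMA, HLA-DRB1, HLA-DQB1 and HLA-DRB5. The rest belonged to genes that are not class II chain genes, such as AVPI1, CLEC12A and PIK3R1. With the letters chosen in view of the matches, this share is not a test. The lines that follow give the 120 bases from 130 to 11 bases before the start for 3 of the 9 genes and for the related chain gene HLA-DQB1, 5′ to 3′ on the gene's strand (all on the minus strand), with the X box core and the Y box core in capitals. The reverse strand form of the Y box core, CCAATC, is in capitals too. They are reference sequence, not the alleles of the lines.
HLA-DRB1, chr6:32589859-32589978: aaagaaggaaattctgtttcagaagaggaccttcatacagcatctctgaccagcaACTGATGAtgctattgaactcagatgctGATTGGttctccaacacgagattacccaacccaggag
HLA-DMA, chr6:32953108-32953227: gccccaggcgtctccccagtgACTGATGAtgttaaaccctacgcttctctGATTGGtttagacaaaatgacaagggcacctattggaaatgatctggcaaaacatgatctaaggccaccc
HLA-DMB, chr6:32941039-32941158: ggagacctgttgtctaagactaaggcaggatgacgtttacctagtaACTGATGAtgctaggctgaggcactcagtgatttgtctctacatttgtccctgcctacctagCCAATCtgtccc
HLA-DQB1, chr6:32666668-32666787: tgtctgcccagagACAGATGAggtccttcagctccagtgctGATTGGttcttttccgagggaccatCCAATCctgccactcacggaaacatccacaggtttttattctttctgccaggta

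In HLA-DRB1 the X box core began 75 bases and the Y box core 47 bases before the start, 28 bases apart. HLA-DMA had them at 109 and 80 bases, 29 bases apart, and HLA-DQB1 at 117 and 89 bases, again 28 apart. HLA-DMB had its X box core at 84 bases and a Y box core on the reverse strand at 22 bases. HLA-DPB1 had a Y box core on the reverse strand at 75 bases and no X box core match. CD74 and 1 of the CD86 windows had an X box core on the reverse strand, at 210 and 28 bases, and no Y box core, and the HLA-DPA1 windows had neither set of letters. DNA methyltransferases act on CpG sites. The windows held 1 CpG in HLA-DRB1, 2 in HLA-DPB1, 3 in HLA-DMA, 3 in CD74, 4 in HLA-DMB, and 3 and 4 in the pair of CD86 windows, against a median of 14 and a lower quartile of 4 over all windows. HLA-DPA1 had windows with 4 and 27.

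Levels are the deposited log2 values, which range less in low genes: the median range over the 9 samples of MOLM-13 was 0.049 among genes with a mean log2 value of 0 to 4 and 0.271 among those of 6 to 8 (0.034 and 0.189 in HL-60). HLA-DPB1 in MOLM-13 and HLA-DMA in HL-60 were low in their line, and whether their differences are shrunk was not tested. Whether the values are per length is not given in the sources used here, so levels of different genes are not compared. All 12 myeloid markers searched (such as MPO, LYZ and CD33) were listed in both lines. The B cell marker MS4A1, the T cell marker CD3E and the monocyte and dendritic cell markers CD14, CD1C and CLEC9A were listed in neither. Of 8 B cell markers 1 was listed in HL-60 and 2 in MOLM-13, of 8 T cell markers 1 and 2, of 10 monocyte and dendritic cell markers 2 and 4, and of 6 erythroid markers 0 and 3. In bulk RNA, a change in the share of cells that express a gene and a change in RNA per cell cannot be told apart.

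In MOLM-13 CIITA, HLA-DRA, HLA-DRB1, CD74, HLA-DMA, HLA-DMB and CD86 rose past the test with both drugs. HLA-DPB1 passed it with NTX-301 and not with DAC. CD86 had the highest rise of the 8. DAC raised 7 of the 8 listed genes and NTX-301 raised all 8, with none lower. Among all genes tested, limma called 36.6% with DAC (15.4% higher and 21.2% lower) and 45.1% with NTX-301 (20.3% higher and 24.8% lower) at an adjusted p under 0.05. The median log2 difference of the 8 genes was 0.333 with DAC and 0.226 with NTX-301, beside 0.00132 and 0.00336 over all genes. In all 8 genes every one of the 6 drug samples lay above all 3 DMSO samples, which held for 17.5% of genes tested. Both comparisons use the same DMSO samples, so each drug's values stand side by side and are not independent.

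**Figure D1:**
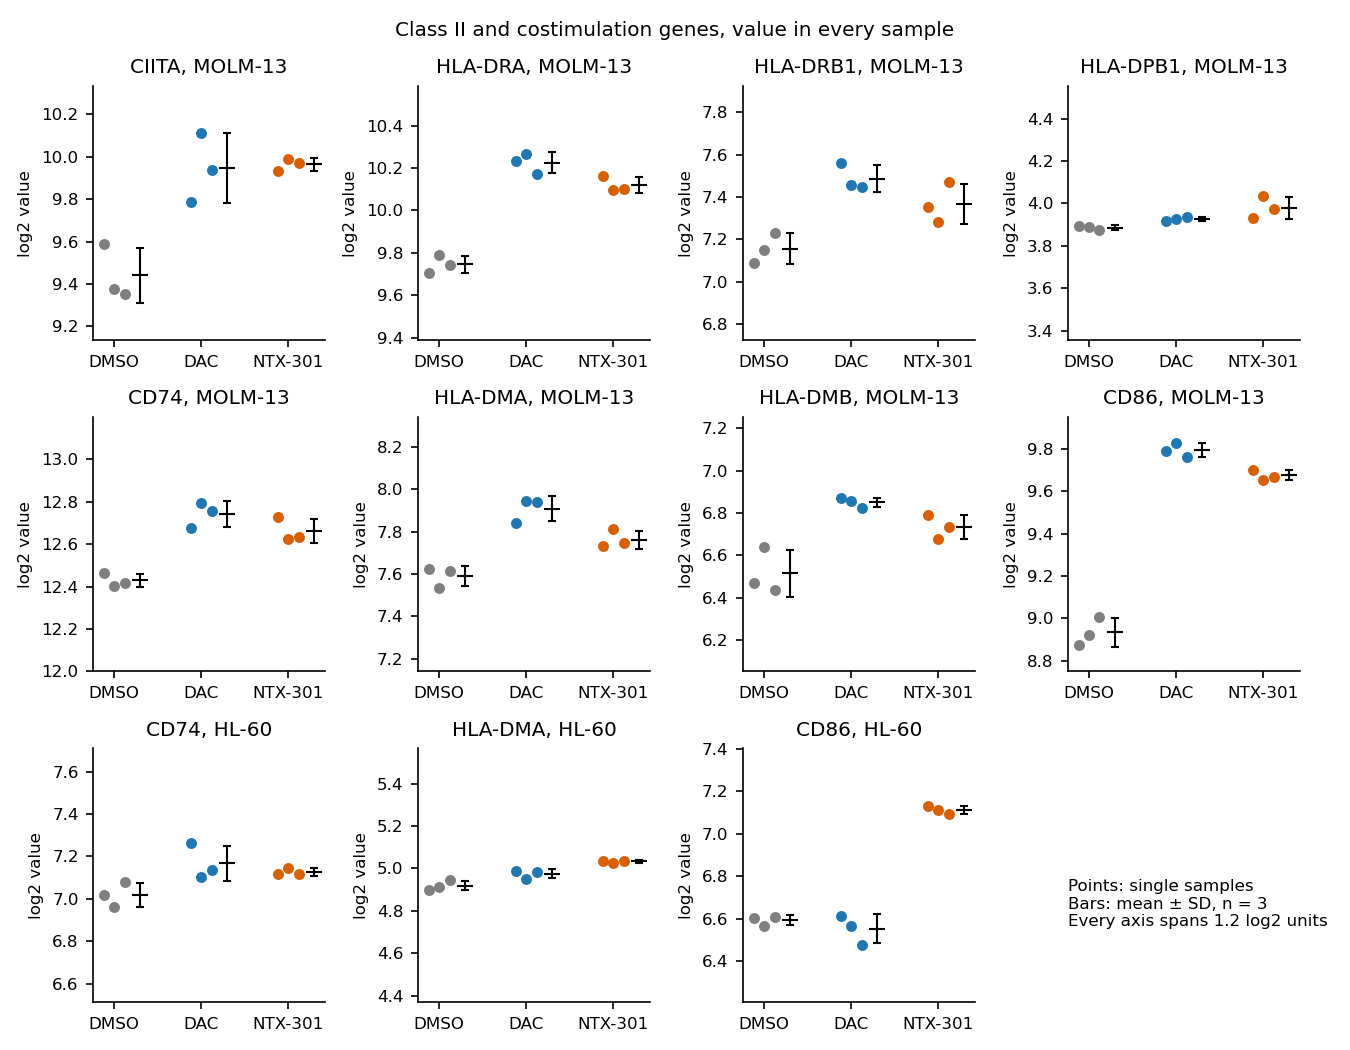
Deposited log2 level (y axis) of each listed gene in every sample, by line and group, with 1 point per sample and a bar at the mean of the 3 samples. In MOLM-13 all drug samples sit above the DMSO samples in all 8 genes, and in HL-60 CD86 is set apart in the NTX-301 samples alone.

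CIITA (NCBI Gene 4261), the coactivator at the head of the pathway, stood at log2 values of 9.59, 9.38 and 9.35 in the DMSO samples of MOLM-13. It stood at 9.79, 10.11 and 9.94 with DAC and at 9.93, 9.99 and 9.97 with NTX-301. All drug samples were above the DMSO samples, while the 2 drugs overlapped, with the wider spread under DAC. The group means were 9.44 ± 0.13, 9.95 ± 0.16 and 9.96 ± 0.029 (SD, n = 3). DAC raised CIITA by 0.51 on the log2 scale (SE 0.079) and NTX-301 by 0.52, at limma adjusted p-values of 0.000421 and 0.000236. CIITA was not among the genes listed in HL-60.

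HLA-DRA (3122), the nearly invariant alpha chain of HLA-DR, had log2 values of 9.71, 9.79 and 9.74 in DMSO. The values were 10.23, 10.27 and 10.17 with DAC and 10.16, 10.10 and 10.10 with NTX-301. The 3 groups did not overlap, and DAC was the highest. The rise under DAC was 0.48 (SE 0.041, limma adjusted p 7.74e-06), and that under NTX-301 was 0.37 (adjusted p 2.31e-05). On the linear scale these were ratios of 1.39 and 1.30.

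HLA-DRB1 (3123), a polymorphic beta chain that pairs with HLA-DRA, had log2 values of 7.09, 7.15 and 7.23 in DMSO. With DAC they were 7.56, 7.46 and 7.45, and with NTX-301 7.35, 7.28 and 7.47. Both drug groups lay above DMSO and overlapped each other. DAC raised HLA-DRB1 by 0.33 (SE 0.064) and NTX-301 by 0.21, at limma adjusted p-values of 0.00175 and 0.0178. The call for NTX-301 was lost with quantile normalization (0.098), without DMSO replicate 1 (0.18) and without NTX-301 replicate 3 (0.16). HLA-DRB1 has near-identical copies (HLA-DRB3, HLA-DRB4 and HLA-DRB5), none of them listed, and how reads were shared among copies is not given in the sources used here, so its level is uncertain.

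HLA-DPB1 (3115), the beta chain of HLA-DP, was low, with small differences on the log2 scale. Its log2 values were 3.89, 3.89 and 3.87 in DMSO, 3.92, 3.92 and 3.93 with DAC, and 3.93, 4.04 and 3.97 with NTX-301. The DAC samples were above DMSO without passing the test, with a difference of 0.039 (95% interval −0.010 to 0.089, limma adjusted p 0.2). NTX-301 raised it by 0.094 (SE 0.023, adjusted p 0.00516). Its range over the 9 samples was 0.163, on a scale where genes this low had a median range of 0.049. HLA-DPA1, the gene for the partner chain, was not listed, and it overlaps HLA-DPB1 on the opposite strand, so reads of the pair could be confused if strand was not used in counting.

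CD74 (972), the invariant chain, had log2 values of 12.46, 12.40 and 12.42 in DMSO. They were 12.67, 12.80 and 12.76 with DAC and 12.73, 12.63 and 12.63 with NTX-301. Both drug groups were above DMSO and overlapped each other. CD74 rose by 0.31 under DAC (SE 0.036, limma adjusted p 5.8e-05). Under NTX-301 its rise was 0.23 (adjusted p 0.000293).

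The genes of the peptide exchanger HLA-DM followed. HLA-DMA (3108) had log2 values of 7.62, 7.54 and 7.61 in DMSO, 7.84, 7.95 and 7.94 with DAC, and 7.73, 7.81 and 7.74 with NTX-301. HLA-DMB (3109) had 6.47, 6.64 and 6.44 in DMSO, 6.87, 6.86 and 6.82 with DAC, and 6.79, 6.68 and 6.73 with NTX-301. In both genes the groups were ordered DMSO, NTX-301, DAC with no overlap between neighbours. HLA-DMA rose by 0.32 under DAC and by 0.17 under NTX-301 (SE 0.054 each, limma adjusted p 0.000782 and 0.0221). HLA-DMB rose by 0.33 and 0.22 (SE 0.059 each, limma adjusted p 0.000977 and 0.0102). With NTX-301 both calls were lost with quantile normalization (0.063 for HLA-DMA and 0.14 for HLA-DMB), and that of HLA-DMA also without DMSO replicate 2 (0.14) and without NTX-301 replicate 2 (0.15).

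CD86 (942), the costimulatory ligand, changed most of the 8 genes with either drug. Its log2 values were 8.87, 8.92 and 9.01 in DMSO, 9.79, 9.83 and 9.76 with DAC, and 9.70, 9.65 and 9.67 with NTX-301. The 3 groups were apart, with DAC the highest and the gap to DMSO many times the spread within a group. DAC raised it by 0.86 (SE 0.045), a linear ratio of 1.81, at a limma adjusted p of 2.33e-07. NTX-301 raised it by 0.74, a ratio of 1.67, at an adjusted p of 5.31e-07. Among all genes tested in MOLM-13 the difference of CD86 ranked at percentile 99.9 with DAC and 99.8 with NTX-301. CD86, CIITA, HLA-DRA and CD74 kept their calls for both drugs in each of the 16 alternatives tried.

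**Figure D2:**
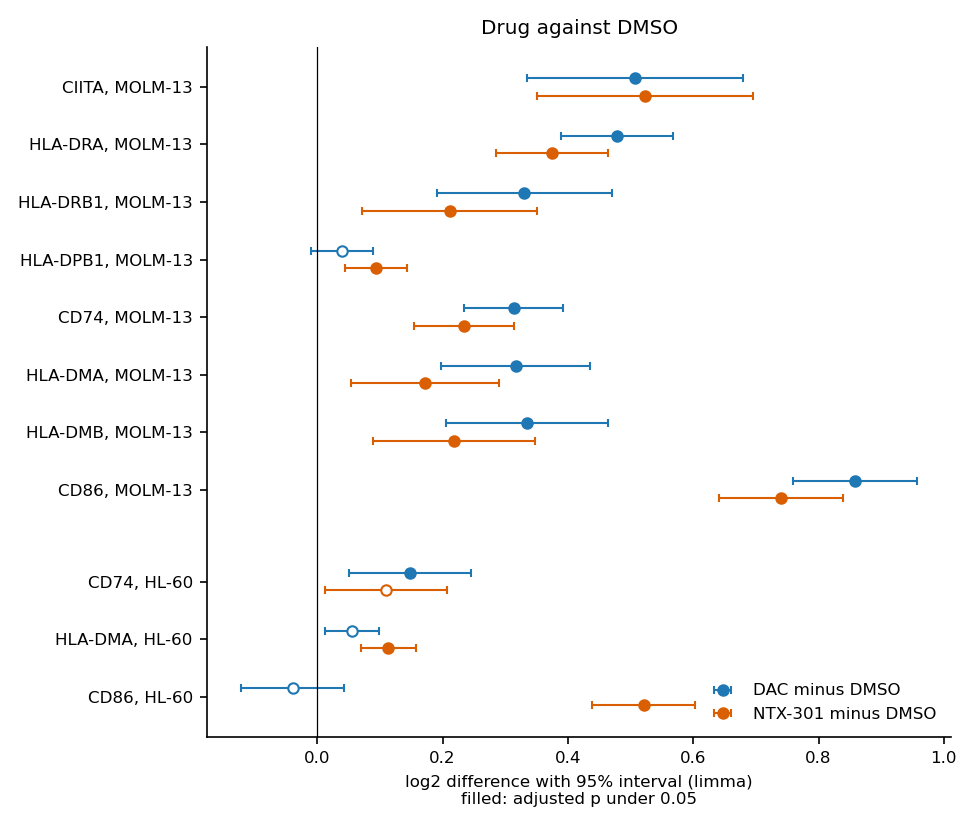
Log2 difference of each drug from DMSO (x axis) with its 95% interval from limma, for each gene and line, with filled points for an adjusted p under 0.05. CD86 has the highest value in MOLM-13 for both drugs (0.86 and 0.74), while in HL-60 it is high for NTX-301 (0.52) and near 0 for DAC.

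Beyond the 9 genes, 2 of 11 other class II chain genes were listed in MOLM-13. HLA-DQB1 (3119), the beta chain of HLA-DQ, had log2 values of 6.77, 6.81 and 6.80 in DMSO, 7.21, 7.23 and 7.11 with DAC, and 7.06, 6.97 and 6.95 with NTX-301. It rose by 0.39 and 0.20 (SE 0.053 each, limma adjusted p 0.000154 and 0.0091), the latter call lost with quantile normalization (0.11). HLA-DOB, a chain of the HLA-DM inhibitor HLA-DO, had mean log2 values of 9.19, 9.19 and 9.23 in the same order of groups, with differences of −0.0082 (limma adjusted p 0.921) and 0.038 (adjusted p 0.602). HLA-DO is known mainly from B cells. HLA-DQB1 has a related gene, HLA-DQB2, which was not listed. How reads were shared between them is not given in the sources used here, so the level of HLA-DQB1 is uncertain.

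None of the factors that bind the X and Y boxes rose past the test in MOLM-13. Of 7 (RFX5, RFXAP, RFXANK, CREB1, NFYA, NFYB and NFYC), 3 fell with DAC and 4 with NTX-301, with none higher, and the median difference was −0.053 and −0.136. Over all genes tested, limma called 36.6% with DAC (21.2% lower) and 45.1% with NTX-301 (24.8% lower). The counts of this list were not tested against these shares. NFYB, a subunit of NF-Y, fell by 0.21 and 0.23 (limma adjusted p 0.00192 and 0.000795). NFYA fell by 0.18 and 0.14, and RFXANK, a subunit of the RFX complex, by 0.083 and 0.14. RFXAP fell by 0.17 with NTX-301. The calls of RFXANK with both drugs and of NFYA with NTX-301 were lost with quantile normalization (−0.039, −0.077 and −0.066), and those of RFXANK with DAC (adjusted p between 0.0512 and 0.116) and RFXAP (adjusted p 0.0526 and 0.05) also without some single samples. RFX5, CREB1 and NFYC did not pass the test with either drug, with differences from −0.060 to 0.088.

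Of 13 genes that act on CIITA (interferon gamma receptors and their kinases, transcription factors and repressors), DAC raised 3 and lowered 5 in MOLM-13, and NTX-301 raised 3 and lowered 4. Over all genes tested, limma called 15.4% higher and 21.2% lower with DAC, and 20.3% and 24.8% with NTX-301. IRF8, a transcription factor of monocytes and dendritic cells, fell by 0.22 and 0.46 (SE 0.028 each, limma adjusted p 0.000112 and 4.9e-07), and its difference between the drugs passed the test (−0.24, adjusted p 0.00105). EZH2, the methyltransferase of the repressive histone mark H3K27me3, fell by 0.20 and 0.14, and the histone deacetylase HDAC2 by 0.11 and 0.21. With quantile normalization the calls of HDAC2 with DAC (−0.015) and of EZH2 with NTX-301 (−0.051, adjusted p 0.163) were lost. Other genes of the list went up. The highest difference of the 13 was 0.22 with DAC, in PRDM1 (mean log2 value 8.46 in DMSO and 8.67 with DAC). With NTX-301 it was 0.21, in IRF2 (9.85 in DMSO and 10.06 with NTX-301). PRDM1 and IRF2 were named here after their values were seen. The median of the 13 was 0.034 with DAC and 0.023 with NTX-301.

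Of 12 genes of endosomal antigen processing 11 were listed in MOLM-13, and 8 rose and 1 fell with DAC, 6 rose and 1 fell with NTX-301. The median difference was 0.169 and 0.0994. Over all genes tested, limma called 15.4% higher and 21.2% lower with DAC, and 20.3% and 24.8% with NTX-301. IFI30, the thiol reductase that opens disulfide bonds of antigens, rose by 0.54 under DAC and 0.25 under NTX-301 (SE 0.035 each, limma adjusted p 1.06e-06 and 0.000124). CTSD, the aspartic protease cathepsin D, rose by 0.45 and 0.33. The protease genes CTSA and CTSB rose too, CTSA by 0.16 and 0.099 and CTSB by 0.18 with either drug. CTSS, the protease best known for the last cut of CD74, did not pass the test with either drug (−0.034 with NTX-301, limma adjusted p 0.484). The gene that fell was CTSC, by 0.099 and 0.12. CTSS and CTSC were named after their values were seen. CD83, which keeps class II and CD86 at the cell surface, rose by 0.20 and 0.16 (limma adjusted p 0.0019 and 0.00723). Of the ubiquitin ligases that remove class II and CD86 from the surface, MARCHF1 did not pass the test (0.015 and 0.036), and MARCHF8 was 0.10 lower with DAC at an adjusted p of 0.0459. That call was lost in 12 of 16 alternatives, among them all 9 fits without 1 sample (adjusted p 0.0509 to 0.161).

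CD86 was not alone among the ligands that T cells read. Of 22 others 19 were listed in MOLM-13, and DAC raised 10 and lowered 1, NTX-301 raised 11 and lowered 1. The median difference was 0.123 and 0.165. Limma called 15.4% of all genes higher and 21.2% lower with DAC, and 20.3% and 24.8% with NTX-301. TNFSF9 (the ligand of 4-1BB) rose by 0.58 with DAC (limma adjusted p 3.37e-06) and 0.50 with NTX-301, CD70 (the ligand of CD27) by 0.55 and 0.65, and the inhibitory ligand VSIR by 0.35 and 0.30. PVR, a ligand of CD226 and TIGIT, fell by 0.12 with either drug and was named after its values were seen. CD80, the sister ligand of CD86, did not pass the test with either drug. CD40, CD274 and PDCD1LG2 were not listed in either line.

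**Figure D3:**
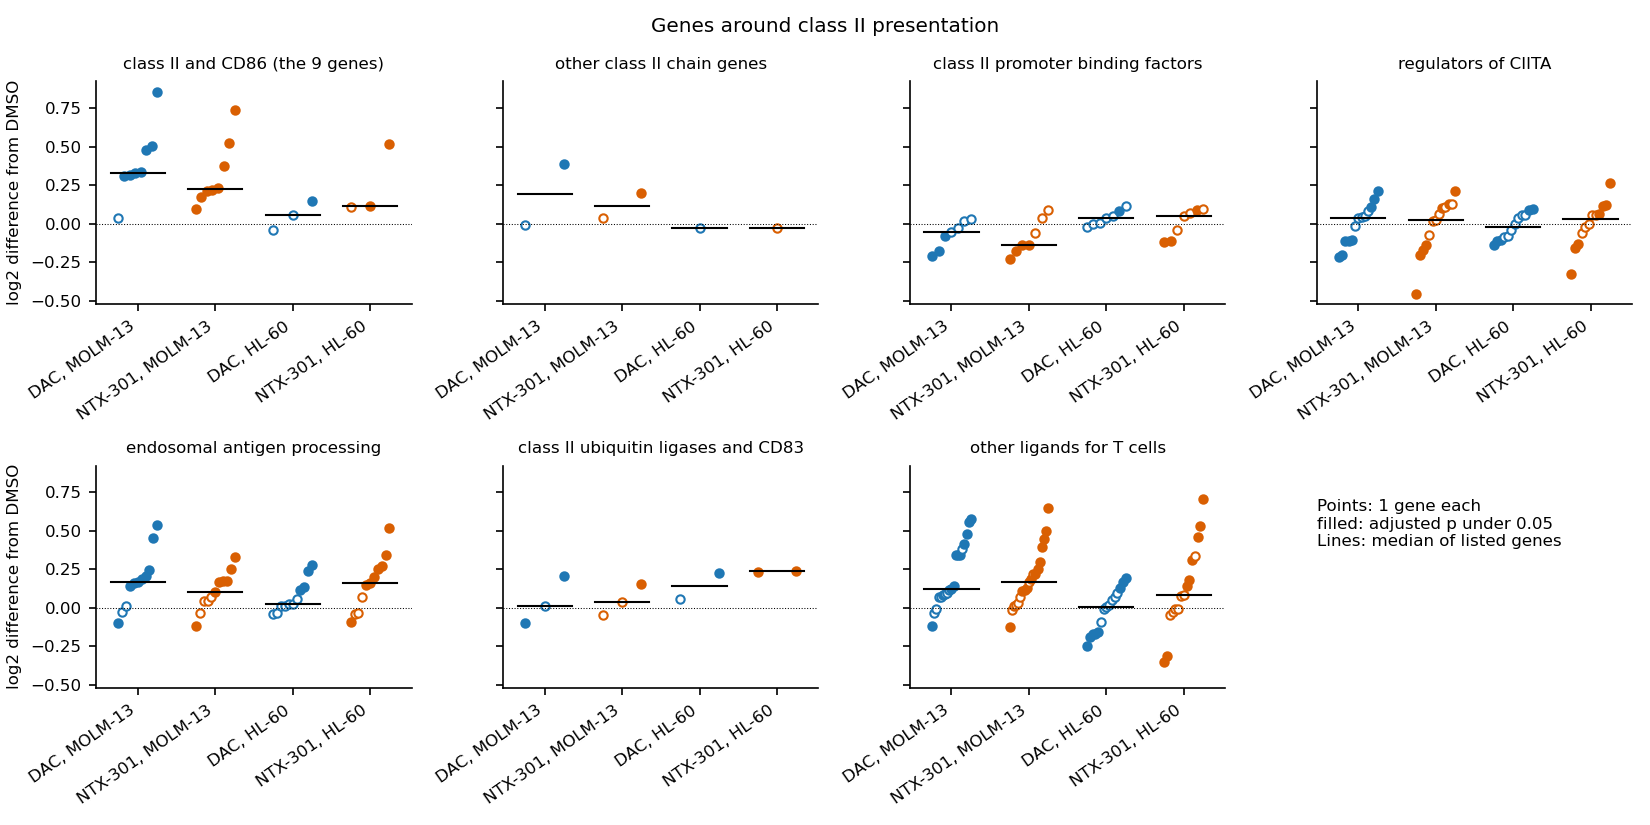
Log2 difference from DMSO (y axis) of every listed gene of the lists, by line and drug, with 1 point per gene and a bar at the median of the list. In MOLM-13 the 9-gene set, antigen processing and the other ligands have medians above 0, and the promoter binding factors have medians below 0.

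Markers of other cells moved in MOLM-13 beside these genes. Of the 4 listed monocyte and dendritic cell markers, ITGAX rose by 0.64 with DAC and 0.69 with NTX-301, LILRB1 rose by 0.18 and 0.25, and IL3RA fell by 0.22 and 0.19. The log2 of their summed linear values ran from 12.1 to 12.15 in DMSO, 12.14 to 12.2 under DAC and 12.19 to 12.24 under NTX-301. For the 2 listed B cell markers it ran from 6.45 to 6.52, 6.43 to 6.5 and 6.34 to 6.58, and neither passed the test. For the 2 listed T cell markers, CD3D and TRAC, it ran from 9.44 to 9.48, 9.5 to 9.53 and 9.7 to 9.79. Both rose past the test with NTX-301 (by 0.27 to 0.28), and neither passed it with DAC (0.039 to 0.12). Of the 12 myeloid markers, 7 rose and 1 fell with DAC, and 5 rose and 2 fell with NTX-301. The shares called over all genes were 36.6% with DAC and 45.1% with NTX-301. LYZ rose by 0.78 and 0.12 and CSF1R by 0.51 and 0.39, FLT3 fell by 0.29 and 0.21, and MPO rose by 0.72 with DAC and fell by 0.087 with NTX-301. Their log2 sum ran from 18.5 to 18.51 in DMSO, 18.8 to 18.83 under DAC and 18.49 to 18.59 under NTX-301. The part of these changes in the class II result was not tested.

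In HL-60, CD86 separated the drugs. The genes that rose past the test were CD86 and HLA-DMA with NTX-301, 2 of the 3 listed genes, and CD74 with DAC, with none lower. Over all genes tested in HL-60, limma called 24.2% with DAC (11.6% higher and 12.6% lower) and 37.4% with NTX-301 (18.3% higher and 19.2% lower). In CD74 and HLA-DMA all 6 drug samples lay above all 3 DMSO samples, 2 of 3 genes where 10.8% of genes tested did so.

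CD86 had log2 values of 6.60, 6.57 and 6.61 in the DMSO samples of HL-60. With DAC they were 6.61, 6.57 and 6.48, and with NTX-301 7.13, 7.11 and 7.10. The DAC samples overlapped DMSO, and the NTX-301 samples stood apart from all others. The rise with NTX-301 was 0.52 (SE 0.038, limma adjusted p 1.49e-07), a linear ratio of 1.44, and ranked at percentile 99.1 of all genes tested. With DAC the difference was −0.039 (95% interval −0.12 to 0.043, adjusted p 0.505). The calls of CD86 in HL-60 held in each of the 16 alternatives, with values from 0.47 to 0.53 for NTX-301.

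CD74 in HL-60 had log2 values of 7.02, 6.96 and 7.08 in DMSO, 7.26, 7.10 and 7.14 with DAC, and 7.12, 7.15 and 7.12 with NTX-301. The drug samples lay just above DMSO and overlapped each other. DAC raised it by 0.15 (SE 0.045, limma adjusted p 0.0286), and the NTX-301 samples differed by 0.11 (95% interval 0.012 to 0.21, adjusted p 0.0745). The call with DAC was lost with quantile normalization (0.12), without DMSO replicate 1 (0.15) or replicate 2 (0.12) and without DAC replicate 1 (0.10).

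HLA-DMA in HL-60 had log2 values of 4.90, 4.91 and 4.94 in DMSO, 4.99, 4.95 and 4.98 with DAC, and 5.03, 5.03 and 5.04 with NTX-301. The 3 groups did not overlap. NTX-301 raised it by 0.11 (SE 0.020, limma adjusted p 0.000475), and the DAC samples differed by 0.055 (adjusted p 0.0614). Its range over the 9 samples was 0.138, beside a median of 0.101 among HL-60 genes of a mean log2 value of 4 to 6. HLA-DOB, the 1 other class II chain gene listed in HL-60 of 11, did not pass the test with DAC (−0.029, adjusted p 0.233) or NTX-301 (−0.030, adjusted p 0.18). Under NTX-301 it passed as a fall with centring on the sample median (−0.062, limma adjusted p 0.0147) and with quantile normalization (−0.051, adjusted p 0.0177).

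Around these genes, HL-60 gave a mixed picture. The counts below stand beside 11.6% of all genes called higher and 12.6% lower with DAC, and 18.3% and 19.2% with NTX-301. Of the 7 promoter binding factors, CREB1 was 0.084 higher with DAC (limma adjusted p 0.0345), a call lost without DMSO replicate 3 (0.052, adjusted p 0.124), without any of the 3 DAC samples (adjusted p 0.0746 to 0.0826) and in a fit of the DAC and DMSO samples alone (adjusted p 0.0592). With NTX-301 CREB1 fell by 0.12, NFYA fell by 0.11, and NFYC was 0.088 higher at an adjusted p of 0.0478 that was lost in 9 of 16 alternatives, among them centring (0.057, adjusted p 0.17). Of the 12 listed genes that act on CIITA, 2 rose and 3 fell with DAC, and 4 rose and 3 fell with NTX-301. SPI1, the myeloid transcription factor PU.1, fell by 0.32 with NTX-301 (limma adjusted p 3.33e-06) and IRF2 rose by 0.26. The kinase gene JAK2 fell by 0.11 with DAC and 0.16 with NTX-301, HDAC2 rose by 0.094 with DAC, and IRF1 fell by 0.14 with DAC, a call lost without DMSO replicate 3 (−0.12) or DAC replicate 2 (−0.11). Of the 11 listed genes of antigen processing, 4 rose with DAC and none fell, and 7 rose and 1 fell with NTX-301. CST3, the protease inhibitor cystatin C, rose by 0.24 and 0.52, and CTSD by 0.28 and 0.25. CTSZ rose by 0.34 with NTX-301 and was 0.12 higher with DAC, a call lost in 6 of 16 alternatives, among them quantile normalization (0.088). CTSA was the gene that fell (by 0.095), named after its values were seen. CD83 rose by 0.22 and 0.24, and MARCHF8 rose by 0.23 with NTX-301.

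Of the 15 other T cell ligands listed in HL-60, 3 rose and 5 fell with DAC, and 6 rose and 2 fell with NTX-301. The shares called over all genes there were 24.2% with DAC and 37.4% with NTX-301. CD48, the ligand of CD244 (2B4), fell by 0.25 under DAC and rose by 0.53 under NTX-301 (limma adjusted p 0.000268 and 9.63e-08). VSIR rose by 0.19 and 0.71, and ICAM3 fell by 0.19 and 0.31. The lone B cell marker listed in HL-60, CD79A, rose by 0.39 with NTX-301, the group in which CD86 rose, and not with DAC (0.061, adjusted p 0.221). Its log2 level ran from 6.42 to 6.44 in DMSO, 6.49 to 6.5 under DAC and 6.76 to 6.86 under NTX-301. The lone T cell marker, TRAC, rose by 0.30 and 0.62. Of the 12 myeloid markers, 1 rose and 8 fell with NTX-301 (median −0.183), and 3 rose and 4 fell with DAC (median 0.0189). PRTN3 fell by 0.76, ELANE by 0.48 and MPO by 0.35 with NTX-301, and with DAC PRTN3 and ELANE did not pass the test while MPO fell by 0.069. The log2 sum of the 12 ran from 19.11 to 19.2 in DMSO, 19.1 to 19.11 under DAC and 18.76 to 18.79 under NTX-301. Of the 2 listed monocyte and dendritic cell markers, ITGAX and IL3RA, 1 rose with NTX-301 and 0 with DAC. ITGAX was 0.096 higher with NTX-301 (mean log2 value 4.55 in DMSO and 4.65 with NTX-301) and IL3RA 0.026 higher. MS4A1 and CD3E were not listed, and the part of these changes in the CD86 result was not tested.

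The drugs were then set against each other in 11 comparisons, 8 genes in MOLM-13 and 3 in HL-60, with p-values adjusted over all genes tested in the line. In MOLM-13 none of the 8 passed the test. Limma called 7.42% of genes there (3.01% higher with NTX-301 and 4.41% lower). The lowest unadjusted limma p-values of the 8 were 0.0205 (HLA-DMA), 0.0232 (CD86), 0.0262 (HLA-DRA) and 0.0326 (HLA-DPB1). The difference NTX-301 minus DAC was below 0 in 6 of the 8, with a median of −0.11 beside 0.000118 over all genes. The shares of all genes with unadjusted p-values this low or with differences below 0 are not given here. Neither is therefore read as a result about the 8. In HLA-DRA, HLA-DMA, HLA-DMB and CD86, 4 of 8, all 3 DAC samples lay above all 3 NTX-301 samples, which held for 14.4% of genes.

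A p that missed the threshold does not show that the drugs act alike, and the 95% intervals give the room that is left. For CIITA the difference was 0.016 with an interval from −0.16 to 0.19. For HLA-DRA it was −0.10 (−0.19 to −0.015) and for HLA-DRB1 −0.12 (−0.26 to 0.020). HLA-DPB1 differed by 0.055 (0.0054 to 0.10), CD74 by −0.080 (−0.16 to 0.00001), HLA-DMA by −0.15 (−0.26 to −0.027) and HLA-DMB by −0.12 (−0.25 to 0.013). For CD86 it was −0.12 (−0.22 to −0.019, limma adjusted p 0.142). HLA-DPB1 passed the test without NTX-301 replicate 1 (0.080, adjusted p 0.0465). The chain gene HLA-DQB1 was 0.19 lower under NTX-301 than under DAC at a limma adjusted p of 0.0479, a call that did not hold in 9 alternatives. IFI30 of the processing genes was lower by 0.29 (limma adjusted p 0.00121) and ICAM3 of the ligands by 0.19 (adjusted p 0.00596). HDAC2 was lower by 0.094 (limma adjusted p 0.0275), a call lost in 8 of 16 alternatives, such as the fit without NTX-301 replicate 3 (−0.079).

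In HL-60 CD86 was the gene in which the drugs differed most among the 3 listed genes of the set. CD86 was 0.56 higher under NTX-301 than under DAC (SE 0.038, 95% interval 0.48 to 0.64, limma adjusted p 1.44e-07), with all 3 NTX-301 samples above all 3 DAC samples and above all 3 DMSO samples. HLA-DMA was higher by 0.058 (adjusted p 0.043), but this call was lost in 10 of 15 alternatives, among them centring on the sample median (0.024), and 7 of the 9 fits without 1 sample. CD74 differed by −0.040 (−0.14 to 0.058, limma adjusted p 0.565). Called genes thus made up 2 of 3, where limma called 30.4% of all genes (15.4% higher and 15.0% lower). None of the 3 had all DAC samples above all NTX-301 samples, as 22.2% of genes did. Among the other ligands, CD48 was higher with NTX-301 by 0.78 (limma adjusted p 5.66e-09), VSIR by 0.52 and TNFSF14 by 0.49. SPI1 was lower by 0.24, CREB1 by 0.20 and NFYA by 0.089. IRF2 was higher by 0.20, CST3 by 0.28, CTSZ by 0.22, CTSB by 0.19 and MARCHF8 by 0.18. The calls of IRF1 (0.12) and NFYA did not hold in every alternative, among them centring for IRF1 (0.081) and quantile normalization for NFYA (−0.072).

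**Figure D4:**
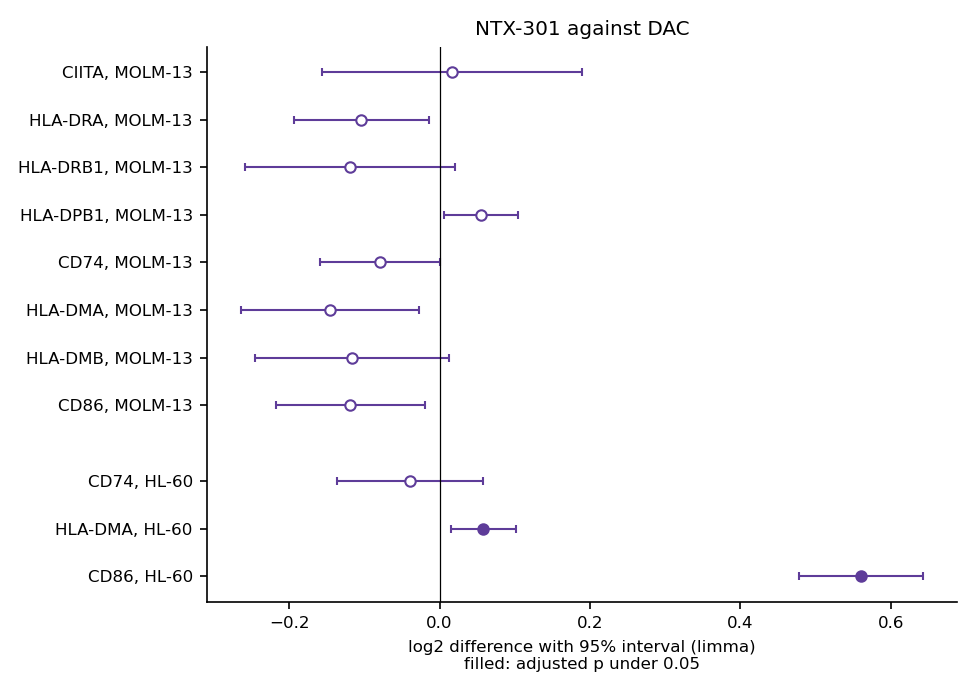
Log2 difference NTX-301 minus DAC (x axis) with its 95% interval from limma for the 11 comparisons, with filled points for an adjusted p under 0.05. CD86 in HL-60, at 0.56, lies apart from the other 10, which run from −0.15 to 0.058.

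Whether the lines answered differently could be tested for the 3 genes listed in both, by subtracting the drug's difference in HL-60 from that in MOLM-13. The tables of the lines appear to have been normalized apart, so levels were not compared across lines, only differences from each line's own DMSO samples. For CD86 with DAC the lines parted by 0.90 (SE 0.062, limma adjusted p 5.58e-09), since CD86 was 0.86 above DMSO in MOLM-13 and −0.039 in HL-60. With NTX-301 the gap was 0.22 (SE 0.062, adjusted p 0.00844), from a rise of 0.74 against 0.52. HLA-DMA rose more in MOLM-13 with DAC, by 0.26 (SE 0.051, limma adjusted p 0.000692), and its gap of 0.058 with NTX-301 did not pass the test (adjusted p 0.394). For CD74 the gap was 0.16 with DAC (95% interval 0.032 to 0.30, limma adjusted p 0.0574) and 0.12 with NTX-301 (−0.0085 to 0.26, adjusted p 0.129). With quantile normalization both gaps of CD74 passed the test (0.25 for each drug, limma adjusted p 0.00606 and 0.00442). The DAC gap passed also without DMSO replicate 2 of HL-60 (0.19), DAC replicate 1 of HL-60 (0.21) or DAC replicate 1 of MOLM-13 (0.20), at adjusted p-values of 0.0362, 0.0137 and 0.0258. Thus 2 of 3 genes were called for DAC, where limma called 30.0% of 15474 genes (12.1% higher in MOLM-13 and 17.9% lower), and 1 of 3 for NTX-301, where it called 40.0% (17.6% higher and 22.4% lower). The stated dose differed with the line. The mean log2 value over the 9 samples was 4.98 in HL-60 and 7.75 in MOLM-13 for HLA-DMA, 6.75 and 9.47 for CD86, and 7.10 and 12.61 for CD74. Deposited values range less in low genes, and the part of this scale in the gaps between lines was not tested.

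Within MOLM-13 the 8 genes moved together to different degrees, described here by Pearson's r of the log2 values over 9 samples that share 3 groups. The pair most alike was HLA-DRA and CD86 (r = 0.987), and the pair least alike HLA-DRB1 and HLA-DPB1 (r = 0.306). CIITA had r = 0.921 with CD74, 0.8985 with CD86, 0.878 with HLA-DRA and 0.8515 with HLA-DMA. It had 0.754 with HLA-DMB, 0.6993 with HLA-DPB1 and 0.683 with HLA-DRB1. Among the 10978 genes averaging a log2 of 8 or more, the pattern most like that of CD86 was that of C3 (r = 0.998), then TNFSF9 (0.996) and PLXND1 (0.995). For CIITA these were SCARNA2 (0.986), SLC36A1 (0.984) and SCUBE1 (0.977), and for CD74 PLEC (0.985), FAM124A (0.984) and ULK1 (0.984). In HL-60, over 10339 genes, genes whose pattern was close to that of CD86 included DNMT3B (0.992) and FGD3 (0.989), and CD74 was most like DAP (0.944). CD86 and HLA-DMA had r = 0.793 there, and CD86 and CD74 r = 0.208. These values follow the order of the 3 groups in each line and carry no test.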

How the data were processed

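The authors deposited 1 table per sample with 1 value per gene on a log2 scale. The scale was read from the values, and the normalization method is not given in the sources used here. The submitters' processing notes name FastQC, Trimmomatic 0.38, HISAT2, StringTie and hg19. No depth is given, so precision rests on the spread between replicates. Samples were grouped by their titles. The 9 samples of a line were fitted with limma 3.58.1 in R 4.3.3 (lmFit, eBayes with a trend, 6 residual degrees of freedom, two-sided) on genes reaching a linear value of 1 in 3 or more samples, 17046 in HL-60 and 17475 in MOLM-13. Differences between lines came from a fit of all 18 samples (12 residual degrees of freedom). The Benjamini-Hochberg adjustment ran over every gene tested, and calls needed an adjusted p under 0.05. The 9 genes and the other lists were chosen with earlier results of these data known. The rule for named genes took all 9 genes, the chain, promoter factor and ligase lists, and, of each other list and contrast, the 3 called genes of lowest adjusted p. Further genes of these lists were named after their values were seen. The fit within a line was tested on simulated data, for DAC against DMSO with the main settings only. Alternatives were scaling, trend, filters, the samples fitted, a replicate block and leaving out each sample. Some items are not reported here.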

Additional observations from a re-analysis of the deposited data

Results flagged for a closer look

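The effect of a drug differed between the lines, by the test of the difference itself, in 3 cases. With DAC, CD86 rose in MOLM-13 and did not pass the test in HL-60, a gap of 0.898 on the log2 scale (SE 0.062, limma adjusted p 5.58e-09). With NTX-301, CD86 rose in both lines and by 0.219 more in MOLM-13 (SE 0.062, adjusted p 0.00844). The DAC difference of HLA-DMA was 0.261 higher in MOLM-13 than in HL-60 (SE 0.051, adjusted p 0.000692). Over 24 alternatives the gap of CD86 lay between 0.86 and 0.93 for DAC and between 0.19 and 0.26 for NTX-301, and over 23 alternatives that of HLA-DMA ran from 0.17 to 0.30. All kept their calls. The stated dose differed with the line, so the line and the dose cannot be told apart. Deposited values range less in low genes, and HLA-DMA was low in HL-60. The part of this scale in the gaps was not tested.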

How the results depend on the processing

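The number of the 9 genes called moved by over 1.5 times in these cases. With quantile normalization it was 5 rather than 8 for NTX-301 against DMSO in MOLM-13, 0 rather than 1 for DAC against DMSO in HL-60, 1 rather than 2 for NTX-301 against DAC in HL-60, and 2 rather than 1 for the gap between lines with NTX-301. NTX-301 against DAC in HL-60 gave 1 also with centring, on genes averaging a log2 of 5 or more and with the replicate block. Without the trend DAC against DMSO in HL-60 gave 2. On genes averaging a log2 of 5 or more the gap between lines with DAC gave 1, since HLA-DMA was then not tested. Leaving out 1 sample gave 0 to 2 genes for DAC against DMSO in HL-60, 1 to 2 for NTX-301 against DAC in HL-60 and 0 to 1 in MOLM-13. Differences that changed sign were not past the test. For NTX-301 against DAC, leaving out 1 sample took CD74 in HL-60 from −0.071 to 0.0079, HLA-DOB in HL-60 from −0.0059 to 0.0054 (0.0050 without NTX-301 replicate 2) and CIITA in MOLM-13 from −0.064 to 0.0997, with the change of sign of CD74 and CIITA without DAC replicate 1. For DAC against DMSO in MOLM-13, HLA-DOB ran from −0.035 to 0.014. With quantile normalization the NTX-301 gap of HLA-DMA between lines was −0.012, and HLA-DOB with NTX-301 in MOLM-13 was −0.036. The causes were not tested. Results for single genes were counted once for each comparison and alternative, so 1 gene can count many times. Of the other such counts, 1792 kept their direction and side of the threshold, 96 lost and 13 gained a call. HLA-DMA for NTX-301 against DAC in HL-60 alone made up 10 of the 96. Centring moved the balance of calls over all genes, to 2270 up and 6053 down in HL-60 under NTX-301 (3115 and 3265 before), 1746 and 5770 for NTX-301 against DAC there (2622 and 2563), 1960 and 5731 for DAC in MOLM-13 (2689 and 3705), and 2735 and 5760 for NTX-301 in MOLM-13 (3543 and 4337). The replicate numbers did not pair the samples: deviations of same-numbered samples had r from −0.16 to 0.118, and a sample was most like its own number in 8 of 18 comparisons in HL-60 and 3 of 18 in MOLM-13. Of the 8 counts of called members of the set of 9, the replicate block changed only the 1 given. Over all genes, NTX-301 against DAC in MOLM-13 gave 1297 calls, and 817 with the block, 767 without DAC replicate 1, 479 without NTX-301 replicate 2 and 462 without NTX-301 replicate 3. Depth is unknown, which limits what the low genes HLA-DPB1 and, in HL-60, HLA-DMA can show.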
